A study of Mus musculus with 3 samples.

Results

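The lipolysis genes described here are 7 genes whose products break down stored fat in the adipocyte and let the glycerol out: Pnpla2, Pnpla3, Lipe, Mgll, Abhd5, G0s2 and Aqp7. They were taken by symbol from the gene tables of 3 libraries of nuclei from mouse epididymal adipose tissue. All 7 were listed in every library, each under 1 gene identifier, among 29604 symbols listed in any library and 24914 listed in all 3.

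The study followed the development of obesity in male C57BL/6J mice in 3 groups. Ordinary diet was given to Ctrl mice, and Mid_Ob mice (during the development of obesity) and Ob mice (after obesity had formed) ate a diet with 60% fat. The study's scheme places the groups at weeks 5, 7 and 9, without saying whether these weeks count age or diet. Fat of 8 mice a group was used for 1 library of nuclei a group, sequenced on the 10x Genomics platform, which tags each RNA molecule with a unique identifier (UMI) and each nucleus with a barcode. With 1 library a stage there is no spread between mice to test against, so no p-value is given, and every interval below covers counting error only. Diet, week and library cannot be told apart.

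In the adipocyte, triglyceride on the lipid droplet is cut in sequence. The triglyceride lipase encoded by Pnpla2 (ATGL) takes the first fatty acid, hormone-sensitive lipase (Lipe) acts mainly on the diglyceride, and monoglyceride lipase (Mgll) releases the last fatty acid and glycerol. Abhd5 (CGI-58) switches ATGL on, G0s2 inhibits it, and the channel encoded by Aqp7 carries glycerol through the plasma membrane. Pnpla3 is the close relative of ATGL on the droplet, and in mouse it is induced by feeding together with the enzymes of fatty acid synthesis. Catecholamines raise cAMP and so stimulate lipolysis, while insulin restrains it.

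By their identifiers the genes lie, in build GRCm38, as follows. Pnpla2 (ENSMUSG00000025509) is at chr7:141455198-141460743 on the plus strand, Pnpla3 (ENSMUSG00000041653) at chr15:84167837-84187236 (plus), Lipe (ENSMUSG00000003123) at chr7:25379527-25398710 (minus) and Mgll (ENSMUSG00000033174) at chr6:88724412-88828360 (plus). Abhd5 (ENSMUSG00000032540) is at chr9:122351608-122381524 (plus), G0s2 (ENSMUSG00000009633) at chr1:193272161-193273217 (minus) and Aqp7 (ENSMUSG00000028427) at chr4:41033074-41048139 (minus). Pnpla2 and Aqp7 overlap no other annotated gene. The other 5 do, and whether the counting used strand is not given in the sources used here, so reads shared with these neighbours make their values uncertain to that extent. Pnpla3 also overlaps Mir6392 and Gm49513 on its own strand, and Mgll overlaps Gm44005, Gm43999 and Gm44001, which counting by strand would not separate. No levels are given here for these same-strand neighbours. The antisense gene 4732471J01Rik across Lipe had 240, 248 and 252 CPM (UMI counts scaled to a total of 1000000) in the adipocyte-like clusters of Ctrl, Mid_Ob and Ob. Lamb3, which overlaps G0s2 from the opposite strand, had 14.6, 17.3 and 19.5 CPM there. The antisense partners of Mgll (Gm26588) and Abhd5 (A730085K08Rik) had at most 12.6 CPM.

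The windows from 250 bases before to 50 after the annotated start are shown for the 4 members that differed past 1.5-fold between stages within adipocyte-like clusters (values follow). They come from RefSeq's annotation of GRCm38.p6, in which all 7 members matched, with 10 windows in all since Lipe, Mgll and Aqp7 have more than 1 start. Capitals mark 4 motifs searched on both strands: CACGTG (the E-box read by ChREBP, SREBP and USF factors), TGACG (the core read by CREB, the factor downstream of cAMP), GTAAACA (read by FOXO factors, which insulin restrains) and AGGTCA (read by nuclear receptors such as PPAR). The windows are chr7:141454938-141455237 (plus) for Pnpla2, chr15:84167566-84167865 (plus) for Pnpla3, chr6:88724162-88724461 (plus) for the first start of Mgll and chr1:193273139-193273438 (minus) for G0s2, each written from 5′ to 3′ on the strand of its gene.
Pnpla2: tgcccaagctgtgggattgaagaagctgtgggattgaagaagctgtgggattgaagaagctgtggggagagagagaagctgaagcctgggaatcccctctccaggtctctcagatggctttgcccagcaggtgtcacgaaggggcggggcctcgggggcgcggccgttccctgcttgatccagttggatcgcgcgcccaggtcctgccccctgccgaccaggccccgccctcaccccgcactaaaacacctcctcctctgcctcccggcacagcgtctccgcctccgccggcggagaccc
Pnpla3: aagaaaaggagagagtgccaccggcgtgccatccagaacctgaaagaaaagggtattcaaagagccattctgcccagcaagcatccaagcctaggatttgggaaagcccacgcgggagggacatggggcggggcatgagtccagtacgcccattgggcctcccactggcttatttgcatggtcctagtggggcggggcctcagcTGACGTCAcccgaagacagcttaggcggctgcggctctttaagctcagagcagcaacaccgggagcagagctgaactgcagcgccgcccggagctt
Mgll: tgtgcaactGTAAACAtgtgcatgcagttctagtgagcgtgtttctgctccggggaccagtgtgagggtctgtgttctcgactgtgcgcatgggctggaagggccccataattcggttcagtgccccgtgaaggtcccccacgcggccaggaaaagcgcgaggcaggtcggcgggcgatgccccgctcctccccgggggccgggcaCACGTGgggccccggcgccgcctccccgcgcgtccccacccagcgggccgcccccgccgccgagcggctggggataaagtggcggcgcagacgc
G0s2: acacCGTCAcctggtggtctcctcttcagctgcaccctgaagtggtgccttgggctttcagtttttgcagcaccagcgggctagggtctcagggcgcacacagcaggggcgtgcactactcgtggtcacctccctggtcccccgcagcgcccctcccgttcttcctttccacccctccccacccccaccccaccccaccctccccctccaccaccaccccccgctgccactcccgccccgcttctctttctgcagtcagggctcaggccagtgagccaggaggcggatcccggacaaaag

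The Pnpla3 window held the TGACG core on both strands, 46 and 43 bases before the start, as overlapping matches that together read TGACGTCA. That longer form, counted after the window had been seen, stood in 1.79% of 32851 RefSeq mouse windows of this length, and the core alone in 20.8%. The Mgll window held GTAAACA at 241 bases and CACGTG at 44 bases before the start, motifs found in 3.65% and 7.15% of all windows. In G0s2 the core lay near the far end of the window, at 246 bases before the start, and in Pnpla2 none of the 4 motifs was found. Among the windows not printed, CACGTG was in 1 of the Lipe windows and GTAAACA in the other, TGACG was in Abhd5 and the other start of Mgll, and AGGTCA (16.3% of all windows) was in Abhd5 and both windows of Aqp7. These matches describe letters in a window and do not show that a factor binds there.

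The libraries held 53980929 (Ctrl), 57665213 (Mid_Ob) and 111595518 (Ob) UMIs in 14, 11 and 21 clusters of nuclei. Clusters were named here from marker genes, so the names are not those of the study. One cluster in Ctrl (cluster 2), 1 in Mid_Ob (cluster 1) and 3 in Ob (clusters 4, 5 and 7) carried the adipocyte markers, at 25.2%, 46.9% and 55.4% of the UMIs. Their summed adipocyte markers stood at 8894, 8597 and 8907 CPM. The level sum covers single markers that differed. Of the 12, 1 was higher and 2 lower past 1.5-fold in Mid_Ob over Ctrl, beside 15.3% and 20.2% of all genes. In Ob over Mid_Ob 2 were higher and 5 lower (15.3% and 19%), and in Ob over Ctrl 1 and 4 (18.8% and 27.6%). The libraries are labelled as fat, but clusters with testis or epididymis markers took 47.0% of the UMIs of Ctrl and 30.3% of Mid_Ob, and no cluster of Ob was named so. The mean over a whole library therefore moves with its make-up, and the adipocyte-like clusters are described first. In such sums fewer adipocytes and less RNA per adipocyte cannot be told apart. Epididymal epithelium markers summed to 290, 1579 and 78.4 CPM in the adipocyte-like clusters of Ctrl, Mid_Ob and Ob. They were highest in Mid_Ob, and their part in levels that stand apart in Mid_Ob was not tested. The sums of Ctrl and Mid_Ob cover 12 of these markers, but only 4 were listed in Ob, so its sum covers fewer genes. Unnamed cluster 17 of Ob had 1493 CPM of these 4, with 1 marker over 2-fold above the rest. No correction for free RNA was made here.

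Within adipocyte-like clusters the genes of the pathway did not differ as a block. Pnpla2 and its inhibitor G0s2 were both higher in Ob than in Ctrl, Mgll was higher, Pnpla3 was lower, and Lipe, Abhd5 and Aqp7 stayed within 1.5-fold. A gene is called higher or lower where the ratio of CPM exceeds 1.5-fold in either direction and both libraries together hold 50 counts or more. The 3 pairs share libraries, so their ratios are not independent of each other.

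For Pnpla2, the lipase of the first step, adipocyte-like clusters had 64.5 CPM in Ctrl, 78.9 in Mid_Ob and 136 in Ob. Most of the difference lay in the later interval, where Ob stood 1.73-fold above Mid_Ob (95% interval 1.65 to 1.81), while Mid_Ob was 1.22-fold Ctrl (1.13 to 1.32). Ob was 2.11-fold Ctrl (1.97 to 2.27), from 8437 counts in Ob and 879 in Ctrl. All 3 adipocyte-like clusters of Ob were above the Ctrl and Mid_Ob levels, with 173 CPM for cluster 4, 111 CPM for cluster 5 and 172 CPM for cluster 7.

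G0s2, the inhibitor of ATGL, had 206 CPM in Ctrl, 463 in Mid_Ob and 467 in Ob. Mid_Ob was 2.24-fold Ctrl (2.15 to 2.34) and Ob 1.01-fold Mid_Ob (0.989 to 1.03), an interval that includes equality. That level value is an average over unlike clusters of Ob, with 643 CPM in cluster 4, 364 CPM in cluster 5 and 551 CPM in cluster 7, and without cluster 5 the log2 ratio over Mid_Ob was 0.41. In the epididymal epithelium-like clusters 2 and 3 of Mid_Ob, G0s2 stood at 44.4 and 42.1 CPM. Ob was 2.26-fold Ctrl (2.18 to 2.35). G0s2 was thus past 1.5-fold between Mid_Ob and Ctrl, and Pnpla2 between Ob and Mid_Ob. Abhd5, the activator of ATGL, had 108, 112 and 154 CPM, and Ob was 1.37-fold Mid_Ob (1.32 to 1.43) and 1.43-fold Ctrl (1.35 to 1.51), short of the 1.5-fold used for a call.

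Mgll, the enzyme of the last step, had 468, 592 and 741 CPM in Ctrl, Mid_Ob and Ob. It was higher at each stage by a like amount, 1.27-fold in Mid_Ob over Ctrl (1.23 to 1.30) and 1.25-fold in Ob over Mid_Ob (1.23 to 1.27), and only both together, 1.58-fold in Ob over Ctrl (1.54 to 1.63), passed 1.5-fold. Without cluster 4 of Ob the log2 ratio of Mgll over Ctrl was 0.44, which is inside 1.5-fold. Lipe, hormone-sensitive lipase, ran the other way with 573, 542 and 450 CPM, Ob being 0.831-fold Mid_Ob (0.814 to 0.848) and 0.785-fold Ctrl (0.766 to 0.805). Without cluster 5 the log2 ratio of Lipe in Ob over Mid_Ob was 0.05, against -0.27 with it, so even the direction of this small difference rests on that cluster.

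Pnpla3 had 1346, 1388 and 879 CPM in Ctrl, Mid_Ob and Ob. Mid_Ob was level with Ctrl at 1.03-fold (1.01 to 1.05), and Ob was 0.633-fold Mid_Ob (0.625 to 0.642) and 0.653-fold Ctrl (0.642 to 0.664). It was the only member called lower, and its call depends on cluster 5 of Ob, the largest adipocyte-like cluster. The Ob clusters held Pnpla3 at 1276 CPM (cluster 4), 680 CPM (5) and 903 CPM (7), all below the Ctrl and Mid_Ob levels. Without cluster 5 the log2 ratio was -0.25 against Mid_Ob and -0.21 against Ctrl, below 0 but inside 1.5-fold.

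Aqp7, the glycerol channel, had 60.3, 41.8 and 57.3 CPM in Ctrl, Mid_Ob and Ob. It was lowest in Mid_Ob, at 0.694-fold Ctrl (0.634 to 0.760), and Ob was 1.37-fold Mid_Ob (1.28 to 1.47) and 0.95-fold Ctrl (0.880 to 1.03), an interval that includes equality. The interval of the first ratio reaches past 1.5-fold in the lower direction, so it cannot be placed on either side of that line at this depth. The sign of the last ratio turned positive (log2 0.04) when ratios were scaled by the median gene.

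**Figure D1:**
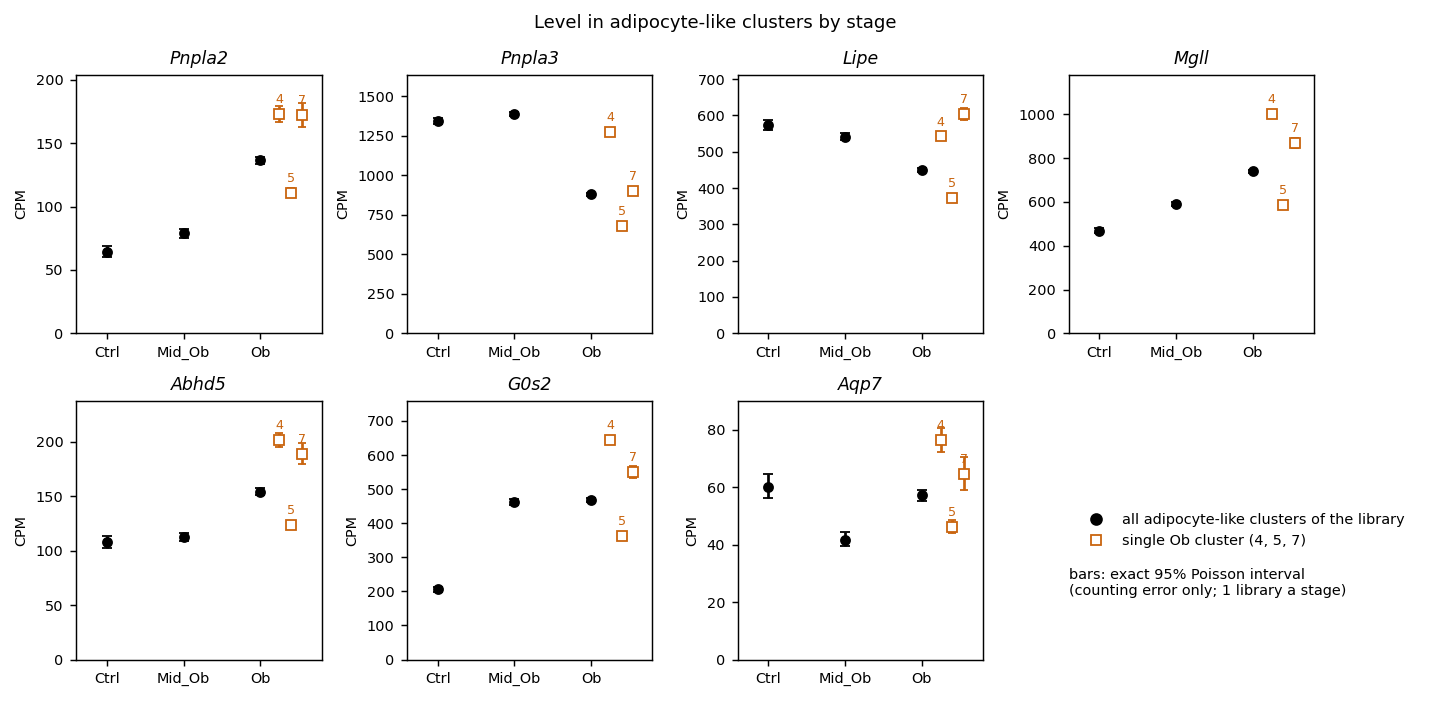
Level of each gene (CPM, linear axis from 0) in the adipocyte-like clusters of Ctrl, Mid_Ob and Ob. Black points are all adipocyte-like clusters of a library, open squares the single clusters 4, 5 and 7 of Ob, and bars exact 95% Poisson intervals. Pnpla2 stands at 64.5, 78.9 and 136 CPM by stage and Pnpla3 at 1346, 1388 and 879 CPM, and for every gene cluster 5 is the lowest of the 3 Ob clusters.

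Counted over the 7 members, 1 was higher (G0s2) and 0 lower in Mid_Ob than in Ctrl, where 15.3% of 17039 genes were higher and 20.2% lower by the same rule. In Ob against Mid_Ob 1 was higher (Pnpla2) and 1 lower (Pnpla3), with 15.3% of 17732 genes higher and 19% lower. In Ob against Ctrl 3 were higher (Pnpla2, Mgll and G0s2) and 1 lower (Pnpla3), with 18.8% of 17823 genes higher and 27.6% lower. For the first 2 pairs these counts are near the share of all genes. The median log2 ratio of the members was 0.06, 0.32 and 0.52 in the 3 pairs, beside -0.09, -0.03 and -0.12 for all genes tested. Relative to the median gene of Ob over Ctrl, Abhd5 (log2 0.63) was also past 1.5-fold and Pnpla3 (log2 -0.50) was not, so 4 members were higher and 0 lower.

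Cluster 5 of Ob had a lower CPM of all 7 genes than clusters 4 and 7. Each of the 7 genes was lower in cluster 5 than in cluster 4, between 0.533-fold (Pnpla3, 0.523 to 0.542) and 0.688-fold (Lipe, 0.671 to 0.707), and the summed adipocyte markers were 0.677-fold (0.673 to 0.680). The macrophage markers summed to 2641 CPM there, against 419 CPM in cluster 4 and 457 CPM in cluster 7. Per 1000 adipocyte marker counts, Pnpla3 stood at 92.4 counts in cluster 5 and 117 in cluster 4, G0s2 at 49.4 and 59.1, and Mgll at 79.7 and 92.1, while Lipe stood at 50.7 and 49.8. Against cluster 7 the genes in cluster 5 lay between 0.618-fold (Lipe, 0.597 to 0.639) and 0.753-fold (Pnpla3, 0.733 to 0.774). The markers were 0.629-fold (0.624 to 0.634). Relative to the markers, Pnpla3, Mgll (0.675-fold) and G0s2 (0.660-fold) were thus not lower in cluster 5 than in cluster 7. The part of the macrophage RNA in the lower levels of cluster 5 was not tested. Clusters 7 and 4 differed most in Pnpla3, which was 0.707-fold in cluster 7 (0.688 to 0.727). Mgll was 0.867-fold (0.843 to 0.892), G0s2 0.856-fold (0.826 to 0.887), Aqp7 0.848-fold (0.763 to 0.941) and Abhd5 0.938-fold (0.881 to 0.997). Pnpla2 was 0.996-fold (0.932 to 1.06), Lipe 1.11-fold (1.08 to 1.15) and the summed markers 1.08-fold (1.07 to 1.08). Without cluster 5, Pnpla2, Mgll, Abhd5 and Aqp7 were all higher in Ob than in Mid_Ob past 1.5-fold, at log2 ratios of 1.13, 0.70, 0.81 and 0.80, and Abhd5 joined the 3 genes higher than in Ctrl, at 0.87.

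Over whole libraries, in which all clusters are summed, the picture differed. Mid_Ob was higher than Ctrl for Pnpla2 (47.3 against 30.5 CPM, 1.55-fold, 1.46 to 1.65), Pnpla3 (696 against 458 CPM, 1.52-fold, 1.5 to 1.55) and G0s2 (244 against 77.4 CPM, 3.15-fold, 3.04 to 3.26). Ob was higher than Mid_Ob for Pnpla2 (101 against 47.3 CPM, 2.13-fold), Abhd5 (103 against 67.7 CPM, 1.52-fold) and Aqp7 (35.6 against 22.9 CPM, 1.55-fold). Against Ctrl, Ob was higher for Pnpla2 (3.30-fold), Mgll (1.83-fold, 482 against 264 CPM), Abhd5 (1.72-fold) and G0s2 (4.03-fold), and 0 members were lower in any pair. Among all genes, 17.3%, 17.5% and 18.1% were higher and 35.5%, 27.3% and 43.5% lower in Mid_Ob over Ctrl, Ob over Mid_Ob and Ob over Ctrl. The median log2 ratio of the members was 0.56, 0.35 and 0.78, beside -0.16, -0.09 and -0.35 for all genes.

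The adipocyte-like share of the UMIs (25.2%, 46.9% and 55.4%) moves with these whole-library values. Adipocyte-like clusters held 74.2% (Ctrl), 93.4% (Mid_Ob) and 94.9% (Ob) of all Pnpla3 counts, against 53.3%, 78.2% and 75.0% of those of Pnpla2 and 44.7%, 71.3% and 85.2% of those of Mgll. For Pnpla3 the direction in Ob over Ctrl depended on the level: 1.12-fold over whole libraries (1.10 to 1.14), 0.653-fold in adipocyte-like clusters, and a log2 ratio of -0.46 over whole libraries without the testis and epididymis clusters. Without those clusters Ob over Mid_Ob had only Pnpla2 higher (log2 0.72) and Pnpla3 lower (log2 -0.91), and Abhd5 and Aqp7 were inside 1.5-fold.

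**Figure D2:**
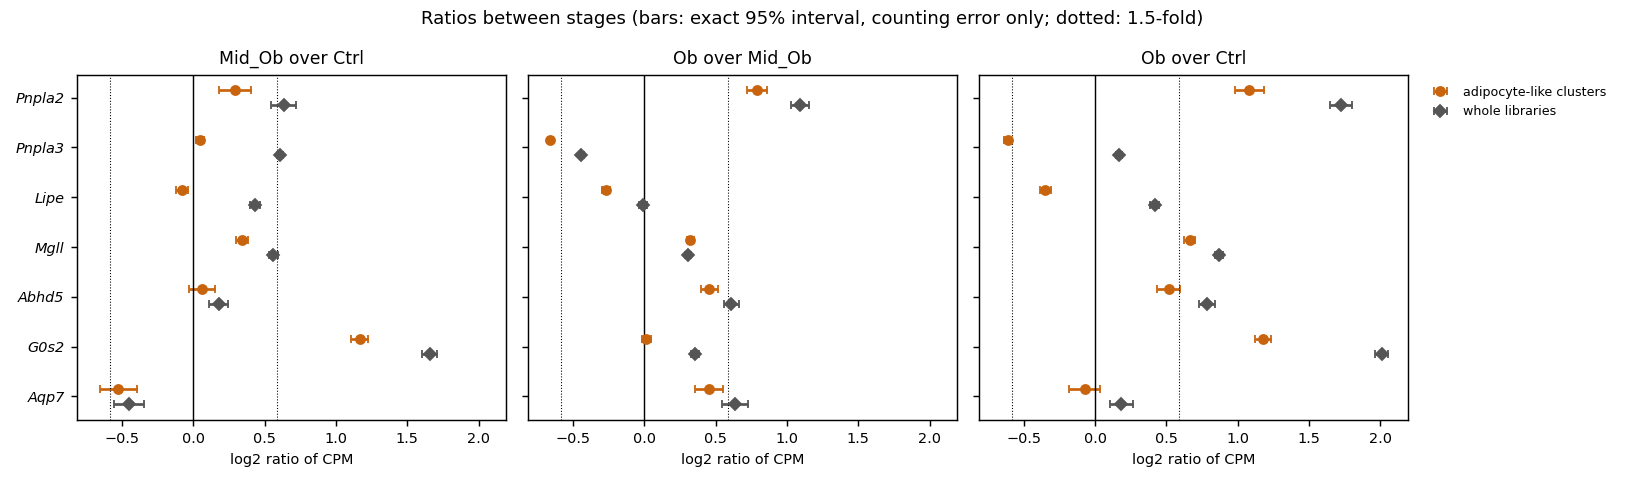
Ratio between stages for each gene on a log2 scale, for the pairs Mid_Ob over Ctrl, Ob over Mid_Ob and Ob over Ctrl. Circles are adipocyte-like clusters, diamonds whole libraries, bars exact 95% intervals of counting error, and dotted lines 1.5-fold. In Ob over Ctrl the whole-library value lies to the right of the adipocyte-like value for every gene, and for Pnpla3 the values lie on either side of 0 (0.17 for whole libraries and -0.61 for adipocyte-like clusters).

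The genes also differed in how far they were limited to adipocytes. Pnpla3 was the most limited of the 7 by the measure used here. Outside adipocyte-like clusters its highest level was 355 CPM in Ctrl (unnamed cluster 1), 485 in Mid_Ob (unnamed cluster 5) and 287 in Ob (cluster 16), and its median over the other clusters was 147, 75.5 and 56.1 CPM. Since free RNA, mixed clusters or doublets could bring adipocyte RNA into other clusters, which was not measured, each gene was also set against the summed adipocyte markers of the same cluster. RNA from 1 adipocyte source, in the mix of the adipocyte-like clusters, would keep the ratio of gene to markers near theirs. Whether adipocyte RNA keeps that mix elsewhere was not tested. Unnamed cluster 1 of Ctrl and cluster 5 of Mid_Ob, rich in mitochondrial RNA, carried 11 of 12 adipocyte markers beside those of other cell types. Pnpla2 there was 2.41 and 2.19 times the adipocyte-like ratio to markers, and Pnpla3 0.55 and 0.589 times. For Pnpla3 that ratio was not above the adipocyte-like ratio, beyond counting error, in any of the 13, 10 and 18 other clusters of the 3 libraries. For Lipe it was above in 1 cluster, in Ctrl.

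**Figure D3:**
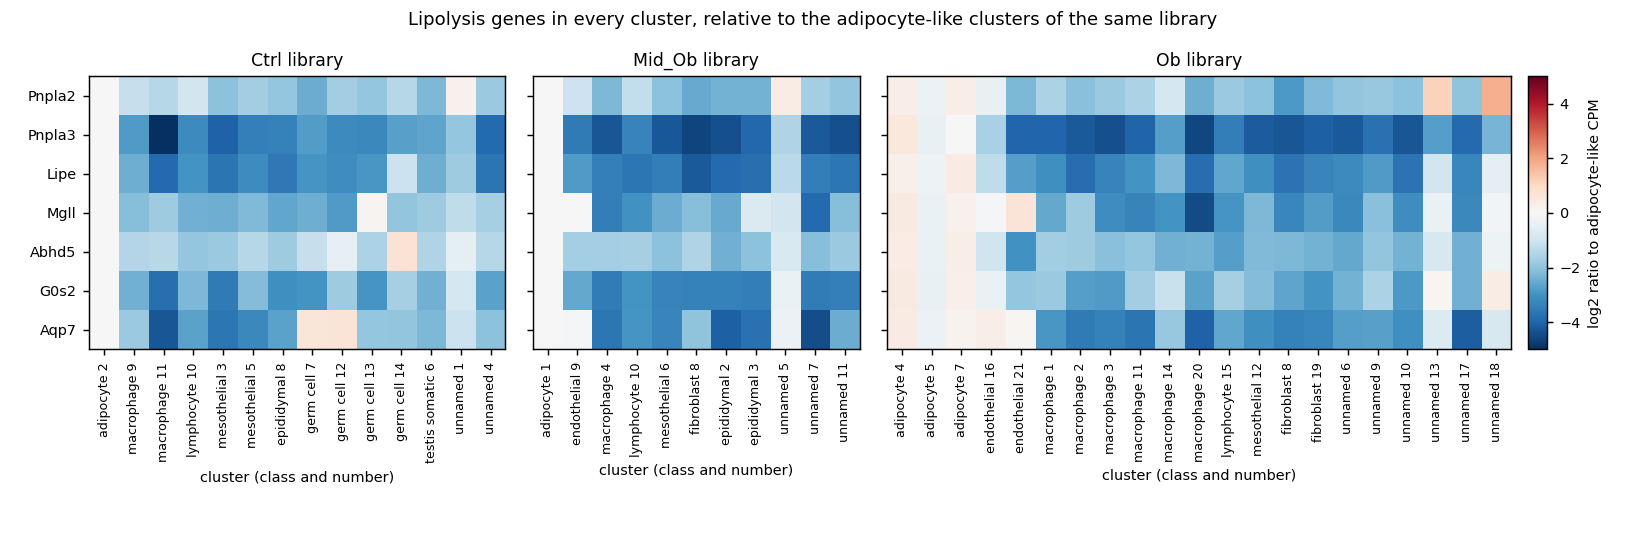
Log2 ratio of each gene's CPM in every cluster to its CPM in the adipocyte-like clusters of the same library. Columns are the clusters of Ctrl (14), Mid_Ob (11) and Ob (21), grouped by class with adipocyte-like first, blue is lower and red is higher. Pnpla3 and Lipe are blue in nearly all other clusters, while Mgll is near or above 0 in germ cell cluster 13 of Ctrl and in the endothelial-like clusters, and Aqp7 in germ cell clusters 7 and 12 of Ctrl and in the endothelial-like clusters.

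Mgll was as high in some other cells as in adipocytes. Monoglyceride lipase also ends the signal of the endocannabinoid 2-arachidonoylglycerol in many tissues. Its highest level in Ctrl was not in adipocytes but in germ cell-like cluster 13, at 514 CPM (498 to 530), against 468 CPM (456 to 479) in the adipocyte-like cluster. That cluster carried 10 of 10 spermatocyte and 2 of 12 spermatid markers, and Mgll counts per adipocyte marker count were 8.57 times those of adipocyte-like clusters (8.24 to 8.91). In Mid_Ob the endothelial-like cluster 9 had 598 CPM (563 to 634), which its interval does not separate from the 592 CPM (583 to 602) of adipocyte-like nuclei. That cluster also carried 8 of 12 adipocyte markers, and its Mgll per adipocyte marker count was 3.98 times the adipocyte-like ratio (3.74 to 4.23). Epididymal epithelium-like cluster 3 of Mid_Ob had 358 CPM (346 to 370), while cluster 2 of the same class had 102 CPM, so epididymal epithelium was not uniform. In Ob, endothelial-like cluster 21 had 1169 CPM (1068 to 1277), 1.58-fold its adipocyte-like level. Its leading genes include the lymphatic genes Prox1, Flt4, Reln and Mmrn1, and its Mgll per adipocyte marker count was 5.38 times the adipocyte-like ratio (4.91 to 5.87). The other endothelial-like cluster of Ob, cluster 16, had 694 CPM (607 to 789), but it also carried 11 of 12 adipocyte markers. Macrophage-like clusters of Ob lay between 33.3 CPM (cluster 20) and 215 CPM (cluster 2), and in none of the 6 was the ratio to adipocyte markers above that of adipocyte-like clusters. In Ctrl, macrophage-like cluster 11 had 136 CPM of Mgll and was above, at 1.84 times that ratio (1.64 to 2.06). Cluster 9 of Ctrl (0.993, 0.875 to 1.12) and cluster 4 of Mid_Ob (0.506, 0.436 to 0.584) were not. The members differed in this ratio, however. In cluster 2 of Ob it was 0.908 times the adipocyte-like ratio for Mgll, 0.923 for Abhd5 and 0.733 for Pnpla2, but 0.171 for Pnpla3 and 0.226 for Lipe. Which cells gave the 2847 CPM of adipocyte markers in cluster 2 was not tested.

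Aqp7 was also high in germ cells and endothelium, but in other germ cell clusters than Mgll. In Ctrl its highest levels were in germ cell-like clusters 12 (93.2 CPM, 67.4 to 125) and 7 (90.9 CPM, 82.1 to 100.4), which do not differ beyond their intervals, against 60.3 CPM (56.2 to 64.5) in the adipocyte-like cluster. Cluster 12 carried 11 of 12 spermatid and 6 of 10 spermatocyte markers, and cluster 7 carried 6 of 12 and 7 of 10. Aqp7 per adipocyte marker count was 8.13 (cluster 12) and 11 times (cluster 7) the adipocyte-like ratio. Cluster 13, where Mgll was high, had only 15.6 CPM of Aqp7. Aqp7 is also known in capillary endothelium, and endothelial-like cluster 9 of Mid_Ob had 39.5 CPM (31.0 to 49.7), against 41.8 CPM (39.4 to 44.3) in adipocyte-like nuclei. In Ob the endothelial-like clusters 16 and 21 had 71.8 CPM (46 to 107) and 61.7 CPM (40.3 to 90.3), from 24 and 26 counts, against 57.3 CPM in adipocyte-like clusters. Per adipocyte marker count, Aqp7 was 3.73 times the adipocyte-like ratio in cluster 9 of Mid_Ob and 3.67 times in cluster 21 of Ob. Cluster 9 of Mid_Ob also carried 8 of 12 adipocyte and 8 of 9 pericyte or smooth muscle markers. Cluster 16 of Ob carried 11 of 12 adipocyte markers, and cluster 21 is the one with lymphatic leading genes. Capillary cells were thus not set apart by these clusters. In the macrophage-like clusters of Ob it was low, between 3.51 and 15.5 CPM.

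Abhd5 and Lipe shared a germ cell-like cluster. In Ctrl germ cell-like cluster 14, which carried 11 of 12 spermatid and 7 of 10 spermatocyte markers, Abhd5 had 176 CPM (154 to 201), above the 108 CPM (102 to 113) of the adipocyte-like cluster, and Lipe had 273 CPM (245 to 303), against 573 CPM in the adipocyte-like cluster. Per adipocyte marker count they were 8.82 and 2.57 times the adipocyte-like ratio. A testis form of hormone-sensitive lipase is known from post-meiotic germ cells. The 4 germ cell-like clusters thus differed from each other, with Mgll highest in cluster 13, Lipe and Abhd5 in cluster 14, and Aqp7 in clusters 7 and 12.

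**Figure D4:**
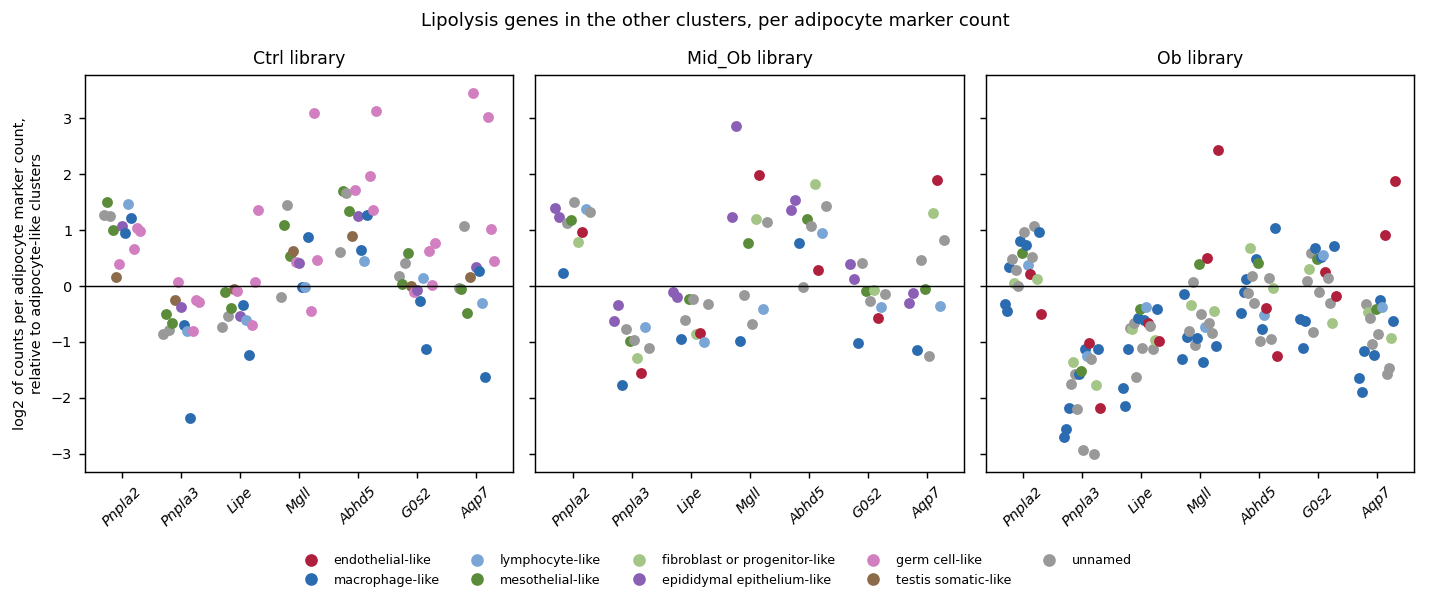
Counts of each gene per adipocyte marker count in every cluster that is not adipocyte-like, as log2 relative to the adipocyte-like clusters of the same library (0 is the adipocyte-like ratio). Points are clusters, coloured by class. Germ cell-like clusters of Ctrl reach 8.57-fold for Mgll and 11-fold for Aqp7 (log2 axis), endothelial-like clusters of Mid_Ob and Ob stand above 0 for both genes, and all points of Pnpla3 in Mid_Ob and Ob lie below 0.

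All 7 members were counted in every class of clusters. Over clusters that were not adipocyte-like the median of Pnpla2 was 19.2, 19.6 and 36.2 CPM in Ctrl, Mid_Ob and Ob, and its ratio to adipocyte markers was above the adipocyte-like ratio in 10 of 13, 9 of 10 and 9 of 18 clusters. For G0s2 the medians were 39.3, 44.3 and 113 CPM, and 4 of 13, 2 of 10 and 7 of 18 clusters were above. Abhd5 was above in 12 of 13, 8 of 10 and 4 of 18 clusters. Mgll was above in 9 of 13, 6 of 10 and 3 of 18, and Aqp7 in 4 of 13, 2 of 10 and 2 of 18. Within macrophage-like clusters, G0s2 stood at 27.8, 40.9 and 88.3 CPM in Ctrl, Mid_Ob and Ob, with Ob 2.16-fold Mid_Ob (1.82 to 2.58) and 3.17-fold Ctrl (2.66 to 3.81). Pnpla2 stood at 26.4, 16.6 and 37.6 CPM, with Ob 2.26-fold Mid_Ob (1.7 to 3.0) and 1.43-fold Ctrl (1.2 to 1.7). Mgll was lowest in Mid_Ob, at 121, 53.5 and 131 CPM, so that Ob was 2.44-fold Mid_Ob (2.11 to 2.84) but 1.08-fold Ctrl (0.99 to 1.2), an interval that includes equality. The adipocyte markers in the same clusters stood at 1745, 1536 and 2484 CPM, with Ob 1.62-fold Mid_Ob (1.57 to 1.66) and 1.42-fold Ctrl (1.39 to 1.46), and their part in these ratios was not tested. In the same class Pnpla3 was 0.680-fold in Ob over Mid_Ob (0.593 to 0.782) and 0.411-fold in Ob over Ctrl (0.371 to 0.456), in the direction opposite to the markers. Its Ob over Mid_Ob ratio was 0.633-fold in adipocyte-like, 0.656-fold in mesothelial-like and 0.574-fold in lymphocyte-like clusters. It was 0.844-fold in fibroblast or progenitor-like clusters (0.670 to 1.07) and 1.32-fold in endothelial-like clusters (1.05 to 1.66). The part of adipocyte RNA in these ratios was not tested. Different clusters make up the macrophage-like class in each library, clusters 9 and 11 in Ctrl, cluster 4 in Mid_Ob and clusters 1, 2, 3, 11, 14 and 20 in Ob. The higher G0s2 was not particular to macrophages. In Ob over Mid_Ob it was 1.53-fold in fibroblast or progenitor-like, 2.29-fold in mesothelial-like, 2.91-fold in endothelial-like and 2.47-fold in lymphocyte-like clusters. In the same order Pnpla2 was 1.74, 1.75, 1.59 and 1.10-fold, and the adipocyte markers were 1.69, 1.57, 1.87 and 1.34-fold.

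The highest Pnpla2 levels of each library were not in adipocyte-like clusters but in clusters rich in mitochondrial RNA that carried markers of several cell types and were left unnamed. Ob clusters 18 and 13 had 466 CPM (435 to 498) and 302 CPM (272 to 335) of Pnpla2, against 136 CPM in adipocyte-like clusters. Their mitochondrial share was 8.39% and 6.18%, against 0.177% to 0.351% in the adipocyte-like clusters of Ob, and their adipocyte markers stood at 14360 and 10136 CPM. In Ctrl cluster 1 and Mid_Ob cluster 5 Pnpla2 had 74.7 CPM (59.8 to 92.1) and 102 CPM (75.5 to 136), against 64.5 and 78.9 CPM in the adipocyte-like clusters, which lie inside those intervals. Pnpla3 went the other way in the Ob clusters 18 and 13, with 177 and 130 CPM against 879 CPM. The part of the mitochondrial RNA content in these levels was not tested.

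Across all 46 clusters the genes fell into different company. These correlations of log2(CPM + 1) are descriptions over clusters that share libraries and differ in depth, and carry no p. Among 16593 genes the closest to Pnpla2 were Adipoq, the adipocyte hormone adiponectin (r = 0.93), Ywhab (0.93) and Plaat3, an adipocyte phospholipase (0.92). Pnpla3 was closest to Slc7a10 (0.97), an amino acid transporter, Trhde (0.97) and Dgat1 (0.96), which makes triglyceride, and Lipe to Plin4 (0.95), Apol6 (0.95) and Plin1 (0.95), of which Plin4 and Plin1 coat the lipid droplet. G0s2 was closest to Mmd (0.95), B3galt2 (0.94) and Slc36a2 (0.93), and Abhd5 to Grina (0.89), Dram1 (0.88) and Rxrg (0.86). The 2 members shared with endothelium had lower values and other company: Mgll with Rgcc (0.77), Rasgrf2 (0.76) and Gys2 (0.76), and Aqp7 with Nos3, the endothelial nitric oxide synthase (0.85), Chst1 (0.84) and Endou (0.84). Between members the largest r were 0.91 for Lipe with Pnpla3 and 0.91 for G0s2 with Pnpla2, while the paralogs Pnpla2 and Pnpla3 had 0.53.

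The genes that control lipolysis were read from a list of 49 in 5 groups, again within adipocyte-like clusters. In Mid_Ob against Ctrl 10 were higher and 10 lower of 42 with enough counts, in Ob against Mid_Ob 12 and 7 of 45, and in Ob against Ctrl 13 and 7 of 44. Among all genes 15.3%, 15.3% and 18.8% were higher and 20.2%, 19% and 27.6% lower in these pairs. The medians of the log2 ratios were 0.05, 0.04 and -0.004, beside the -0.09, -0.03 and -0.12 of all genes.

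Of 11 stimulating genes, 1 was higher and 3 lower in Ob than in Ctrl, near the 18.8% and 27.6% of all genes. Adcy5, an adenylyl cyclase that makes cAMP, had 120, 204 and 364 CPM in Ctrl, Mid_Ob and Ob, 3.04-fold in Ob over Ctrl (2.89 to 3.20). Npr1, a natriuretic peptide receptor, was lower in Ob and in Mid_Ob than in Ctrl and had 33.8, 8.36 and 6.78 CPM, and Prkg1, the cGMP-dependent kinase, was likewise lower with 184, 82.3 and 78.0 CPM. Without cluster 5 they stood at 2.87 and 36 CPM in Ob. Adrb3, the main beta receptor of mouse adipocytes, was level at 581, 595 and 615 CPM; it is named here after its values were seen.

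Of 13 inhibiting genes, 5 were higher and 0 lower in Ob than in Ctrl among 11 with enough counts, beside 18.8% and 27.6% of all genes. Npr3, the clearance receptor of natriuretic peptides, had 743, 2145 and 1743 CPM, so it was higher by 2.89-fold in Mid_Ob over Ctrl (2.83 to 2.95) while Npr1 was lower at 0.247-fold (0.210 to 0.290). Gnai1, the inhibitory G protein subunit, had 206, 351 and 554 CPM. Pde3b, which breaks down cAMP under insulin, was lowest in Mid_Ob, at 1525, 749 and 1190 CPM. Ptger3, the inhibitory prostaglandin E2 receptor, was highest there, at 87.0, 472 and 68.2 CPM, 5.42-fold in Mid_Ob over Ctrl (5.11 to 5.76) and 0.145-fold in Ob over Mid_Ob. The remaining higher genes were Irs2, Hcar1 and Hcar2, and Hcar1 and Hcar2 reached only 6.07 and 4.66 CPM in Ob.

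Among 9 droplet genes, Fabp4, which carries fatty acids and binds hormone-sensitive lipase, had 1096, 1059 and 3195 CPM in Ctrl, Mid_Ob and Ob, 3.02-fold in Ob over Mid_Ob (2.98 to 3.06). Plin2, a droplet coat protein, had 98.5, 169 and 435 CPM, 4.42-fold in Ob over Ctrl (4.18 to 4.67) and 2.96-fold without cluster 5. Hilpda, another inhibitor of ATGL, had 4.04, 17.8 and 20.4 CPM, so that like G0s2 it was higher in Mid_Ob than in Ctrl (4.40-fold, 3.32 to 5.93) and within 1.5-fold between Ob and Mid_Ob. Plin5 was lower, at 5.29, 3.44 and 1.89 CPM. Plin1, the main droplet gatekeeper of adipocytes, was within 1.5-fold in all 3 pairs, at 681, 738 and 864 CPM; it too is named after its values were seen.

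Of 10 other lipases, 9 had enough counts, and 3 of these were higher and 2 lower in Ob than in Ctrl, beside 18.8% and 27.6% of all genes. Lipa, the lysosomal acid lipase, had 42.6, 27.7 and 106 CPM, Abhd12 112, 97.6 and 215 CPM and Daglb 43.9, 38 and 89.0 CPM, all higher in Ob than in either other stage. Without cluster 5 these stood at 42.0, 105 and 31.8 CPM in Ob, and none was past 1.5-fold over Ctrl (Lipa was 1.52-fold over Mid_Ob), so the calls against Ctrl rest on the adipocyte-like cluster with the highest macrophage markers. Ces1d, a carboxylesterase with triglyceride hydrolase activity, was lower already in Mid_Ob, at 205, 50.2 and 65.6 CPM, and without cluster 5 it had 84.4 CPM in Ob, which is 1.68-fold Mid_Ob. Macrophage markers stood at 754, 538 and 1731 CPM in the adipocyte-like clusters of Ctrl, Mid_Ob and Ob, and Lipa is also known as a macrophage gene. The part of macrophage RNA in the levels of Lipa, Abhd12 and Daglb was not tested.

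Of 6 glycerol genes, Gpd1, which makes glycerol 3-phosphate from glycolysis, had 20.5, 142 and 113 CPM in Ctrl, Mid_Ob and Ob, 6.94-fold in Mid_Ob over Ctrl (6.15 to 7.87). Gk, the glycerol kinase, had 44.7, 106 and 65.9 CPM and Aqp9, another glycerol channel, 12.7, 20 and 8.70 CPM. Without cluster 5, Aqp9 had 2.83 CPM in Ob, 0.223-fold Ctrl against 0.685-fold with it. Gk and Aqp9 were highest in Mid_Ob, where Aqp7 was lowest and where the epididymal epithelium markers of the adipocyte-like cluster were highest (1579 CPM). Their part in the Mid_Ob levels of Gpd1, Gk, Aqp9, Ptger3 and Acly was not tested. Aqp11 had 7.93, 4.92 and 4.16 CPM.

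**Figure D5:**
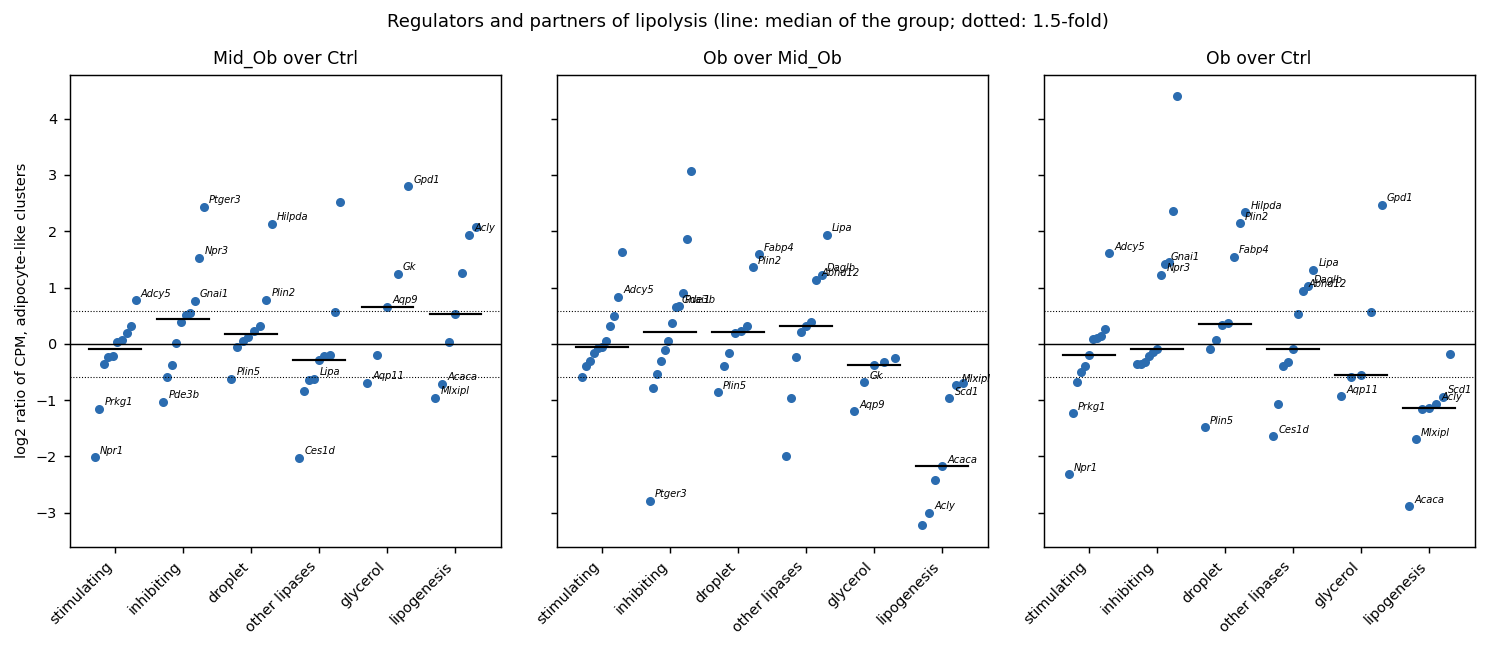
Log2 ratio of CPM in adipocyte-like clusters for the genes that stimulate or inhibit lipolysis, droplet genes, other lipases, glycerol genes and, set beside Pnpla3, fatty acid synthesis genes, for the 3 pairs. Points are genes, black lines group medians and dotted lines 1.5-fold, and names mark genes described in the text that are past it. In Ob over Mid_Ob all 7 lipogenesis genes lie below the lower dotted line, with a median of -2.18.

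Since Pnpla3 is known to follow fatty acid synthesis, 7 lipogenesis genes were set beside it. All 7 (Srebf1, Mlxipl, Fasn, Acly, Acaca, Elovl6 and Scd1) were lower in Ob than in Mid_Ob, with a median log2 ratio of -2.18, beside 19% of all genes lower in that pair, and Pnpla3 at -0.66 in that pair was lower by less. Without cluster 5, Mlxipl was 0.772-fold in Ob over Mid_Ob and no longer called. Acly, which supplies acetyl-CoA, had 105, 404 and 50.5 CPM in Ctrl, Mid_Ob and Ob, and Acaca, the carboxylase of the first committed step, 2628, 1606 and 355 CPM. Scd1, a desaturase, had 675, 688 and 351 CPM, and like Pnpla3 it was level between Ctrl and Mid_Ob and lower in Ob. Mlxipl (ChREBP) had 600, 309 and 186 CPM. In Mid_Ob over Ctrl, where Pnpla3 was level, 3 of the 7 were higher (Fasn, Acly and Elovl6) and 2 lower (Mlxipl and Acaca), beside 15.3% and 20.2% of all genes. In Ob over Ctrl 6 of 7 were lower, beside 27.6% of all genes, with a median of -1.14.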

How the data were processed

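Epididymal fat of 8 mice a stage was pooled into 1 library of nuclei each for Ctrl, Mid_Ob and Ob, so no test between stages was possible. Per the study, Cell Ranger with STAR inside it aligned and counted the reads. Which versions, genome build and annotation were used is not given in the sources used here. The deposited signal column of each cluster is a mean count per nucleus, scaled by size factors. The deposited log2 fold changes and the deposited p-values of each cluster against the other nuclei are the authors' own comparisons and were not used.

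Whole counts were recovered from the step between mean counts, and 100% of values were whole within 0.001 counts. Counts were summed over a library or class and divided by all UMIs as CPM, with exact Poisson intervals, and ratios had exact conditional binomial intervals, at the 95% level. The 3 stage pairs were called at 1.5-fold with at least 50 counts. On simulated data of the 3 pairs 95.8% of 16978 (Mid_Ob over Ctrl), 95.7% of 17714 (Ob over Mid_Ob) and 95.7% of 17780 (Ob over Ctrl) intervals held the simulated ratio. The simulated counts held Poisson counting error only, as the intervals assume. They therefore check the calculation and say nothing about spread between nuclei, mice or libraries.

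Clusters were named from marker lists (at least 3 markers over 2-fold above the rest of the library) and their 10 leading genes. The text names the 7 members, up to 4 most abundant genes past 1.5-fold of each control group, and the 3 genes most like each member among those with at least 500 counts. Exceptions are Adrb3, Plin1, Irs2, Hcar1, Hcar2 and the genes listed beside a count, named after their values were seen. The members, lists and tests were chosen with earlier results of these data known. Of 29625 gene identifiers 99.8% matched GENCODE M21 (GRCm38), used for positions. One control gene that the rule names is not reported here. Doublets were not called. Alternatives were other scalings, weights, count minimums and left-out clusters. The tools were numpy 2.4.6, pandas 2.3.3, scipy 1.17.1, matplotlib 3.10.9 and Python 3.11.15.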

Additional observations from a re-analysis of the deposited data

Results flagged for a closer look

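Signal of Pnpla2 above its level in adipocyte-like clusters was found in 2 clusters of Ob that carry no cell type name. Unnamed cluster 13 had 302 CPM and unnamed cluster 18 had 466 CPM, against 136 CPM in the adipocyte-like clusters. Both are rich in mitochondrial RNA, at 6.18% and 8.39% of UMIs, and the part of this in the Pnpla2 level was not tested.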

How the results depend on the processing

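Counts are given as members higher and lower past 1.5-fold. In adipocyte-like clusters, Ob over Mid_Ob had 1 and 1 as reported, 2 and 0 with every cluster at equal weight, and 4 and 0 without cluster 5 of Ob. Ob over Ctrl had 1 lower as reported and 0 with the median gene as scaling, at equal weight or without cluster 5. In whole libraries, Mid_Ob over Ctrl had 3 and 0 as reported, 5 higher with the median gene as scaling, and 1 and 1 at equal weight, where Pnpla3 turned to a log2 ratio of -0.027, and Ob over Mid_Ob had 3 and 0 as reported and 1 and 1 without testis and epididymis clusters. Of the control genes 10 were lower in Mid_Ob than in Ctrl as reported and 6 with the median gene as scaling, with 10 and 13 higher. Minimums of 10 or 500 counts and leaving out mitochondrial genes moved no count of members by over 1.5 times. No paired analysis was possible because each stage has 1 library. Rare genes in the smallest clusters are limited by depth, such as Aqp7 at 24 counts in cluster 16 of Ob.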
